A study of Mus musculus with 23 samples.

Results

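The genes described here are 10 genes that mark the inhibitory interneurons of the hippocampus and the neuropeptides these cells release: Gad1, Gad2, Slc32a1, Sst, Npy, Pvalb, Vip, Cck, Reln and Lamp5. They were taken by gene symbol from a table of 19733 genes measured by RNA sequencing in the hippocampus of 23 wild-type male C57BL/6J mice. All 10 symbols were found once each, and all 10 genes were among the 15985 genes that passed the filter on low values (a mean of at least 0.1 FPKM over all mice). In FPKM the fragments of a gene are divided by the length of its transcript and by the total of the library, so levels are per transcript length.

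The 9 Ctrl mice received an AIN93M control liquid diet and, by daily gavage, the vehicle, 0.05% sodium carboxymethyl cellulose (CMC-Na). The 7 EtOH mice received the AIN93M liquid diet with ethanol and the same vehicle. The 7 EtOH-UA mice received the ethanol diet and urolithin A, a metabolite that gut bacteria make from ellagitannins, at 200 mg/kg/day in that vehicle. All mice were 6 weeks old when acquired, were kept on their diet for 16 weeks, and then passed through 1 week of behavioral tests before the tissue was taken. The EtOH against Ctrl comparison asks what the ethanol diet does to these genes, and the EtOH-UA against EtOH comparison asks what urolithin A adds to it. There was no group given urolithin A without ethanol.

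Inhibitory interneurons release gamma-aminobutyric acid (GABA) and set the timing and the gain of hippocampal pyramidal cells and granule cells. Gad1 and Gad2 encode the enzymes that make GABA from glutamate, and Slc32a1 encodes the transporter that loads it into synaptic vesicles, so these genes are used by interneurons of every class. The other genes divide the cells into classes: Sst (somatostatin) marks cells that contact distal dendrites, Pvalb (the calcium buffer parvalbumin) marks fast-spiking basket and axo-axonic cells, Vip (vasoactive intestinal peptide) marks many cells that inhibit other interneurons, and Npy (neuropeptide Y), Reln (reelin) and Lamp5 (a lysosome-associated membrane protein) mark, among others, neurogliaform cells. Cck (cholecystokinin) marks another class of basket cells and is also transcribed in many pyramidal cells. In the RefSeq annotation of GRCm38, Gad1 (chr2:70561303-70602014), Gad2 (chr2:22621015-22693877), Slc32a1 (chr2:158607260-158615747) and Lamp5 (chr2:136052025-136069917) lie on the same chromosome. The others are Sst (chr16:23889573-23891342), Npy (chr6:49822710-49829507), Pvalb (chr15:78191112-78206400), Vip (chr10:5639193-5647617), Cck (chr9:121489824-121495694) and Reln (chr5:21884454-22344705).

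Promoters are shown for 5 of the genes because peptide genes such as Sst and Vip are textbook targets of the cyclic AMP response element, a site bound by the factor CREB, and because Slc32a1 was the gene that varied most closely with Sst. The 120 bases before the start of transcription are given 5′ to 3′ on the strand of the gene, as RefSeq has them for GRCm38.p6. Capitals mark TGACG, the core of that element, on either strand.
Slc32a1: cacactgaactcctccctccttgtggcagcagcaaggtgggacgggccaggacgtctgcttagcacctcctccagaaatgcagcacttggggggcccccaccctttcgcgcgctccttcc
Sst: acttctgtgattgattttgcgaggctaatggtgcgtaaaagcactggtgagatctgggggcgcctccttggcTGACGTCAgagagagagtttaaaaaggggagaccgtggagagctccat
Vip: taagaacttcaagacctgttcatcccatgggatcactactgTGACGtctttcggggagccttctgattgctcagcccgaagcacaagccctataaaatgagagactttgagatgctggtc
Cck: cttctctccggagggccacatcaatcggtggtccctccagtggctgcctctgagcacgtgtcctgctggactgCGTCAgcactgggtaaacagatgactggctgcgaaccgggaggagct
Gad2: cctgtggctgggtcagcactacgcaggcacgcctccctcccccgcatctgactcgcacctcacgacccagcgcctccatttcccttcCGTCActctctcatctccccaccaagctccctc
Their positions are chr2:158610638-158610757 on the plus strand for Slc32a1, chr16:23890845-23890964 on the minus strand for Sst, chr10:5639098-5639217 on the plus strand for Vip, chr9:121495695-121495814 on the minus strand for Cck and chr2:22622207-22622326 on the plus strand for Gad2. The full palindrome TGACGTCA, in which the cores of both strands overlap, was found in 1 of 12 promoters of the 10 genes (Pvalb and Lamp5 each have 2 listed), that of Sst, where it starts at base -48 from the start site. Over all 32851 promoters of the same length, 1.24% held it. The core on either strand was found in 4 of the 12 promoters, against 11.7% of all promoters: in Vip it starts at base -79, in Cck at base -47 and in Gad2 at base -33. The Slc32a1 promoter does not hold it in this window. A TATAAA box on the gene's strand was found in 1 of the 12, that of Vip, and in 4.19% of all promoters. These letters are a description of the sequence, and binding was not measured.

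The libraries differed from one another within each group, and some of the measures below also differed between groups. Summed FPKM lay between 330456 and 361354 in Ctrl mice, between 327896 and 366930 in EtOH mice and between 333801 and 404609 in EtOH-UA mice, and the highest sums were those of EtOH-UA mouse 137 (404609) and EtOH-UA mouse 141 (379518). In these 2 libraries short transcripts were high relative to long ones. The slope of a library's log2 deviations on log2 transcript length, over 12565 genes, was -0.266 in mouse 137 and -0.162 in mouse 141, and it lay between -0.115 and 0.0942 in the other 21 mice. The 12 genes of a choroid plexus list summed to between 41.7 and 3380 FPKM in Ctrl mice, between 137 and 6650 FPKM in EtOH mice and between 50.9 and 8570 FPKM in EtOH-UA mice. Transthyretin (Ttr), the main transcript of that tissue, ranged from 3.88 to 7705 FPKM over the 23 mice. The choroid plexus score, the mean of centred log2 values over that list, averaged -0.826 ± 1.95 in Ctrl mice (SD). It averaged 0.762 ± 1.22 in EtOH and 0.3 ± 2.11 in EtOH-UA mice (SD). Fits that use this score as a covariate therefore cannot fully separate it from the diet. Markers of pyramidal and granule neurons were present in every library, with sums over 10 genes from 1800 to 2410 FPKM, as were the 10 genes of hippocampal subfields, with sums from 136 to 241 FPKM. Values that moved most without mice 137 and 141 are given with and without them.

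Over all mice the most abundant of the 10 genes per transcript length was Cck, with a mean of 220 FPKM, followed by Sst (186 FPKM), Gad1 (102 FPKM) and Npy (42.3 FPKM). Gad2 (30.0 FPKM), Pvalb (22.7 FPKM), Lamp5 (17.9 FPKM), Slc32a1 (16.2 FPKM) and Vip (12.9 FPKM) came next, and Reln was the lowest, at 6.83 FPKM. The order was tight in some places and loose in others. Sst was above Gad1, Gad1 above Npy, Slc32a1 above Vip and Vip above Reln in 23 of 23 mice. The other neighbours changed places: Cck was above Sst in 20 of 23 mice, Npy above Gad2 in 21, Gad2 above Pvalb in 18, Pvalb above Lamp5 in 20 and Lamp5 above Slc32a1 in 18.

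The genes also differed in how much they varied between mice of a group. Gad1 varied least, with an SD of 9.69% around the group means, and its highest mouse was 1.4 times its lowest. Reln (28.2%), Pvalb (26.1%), Vip (25.8%) and Sst (24.6%) varied most, and for Sst the highest mouse was 2.49 times the lowest. Between them lay Npy (14.1%), Lamp5 (14.8%), Gad2 (15.1%), Slc32a1 (16.3%) and Cck (16.7%). The estimated counting error was smaller than this spread for every gene, from 1.3% for Gad1, with about 5890 fragments per library, to 5.42% for Vip, with about 341. The table holds no counts, and these fragment numbers were estimated from the even spacing of low FPKM values.

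**Figure D1:**
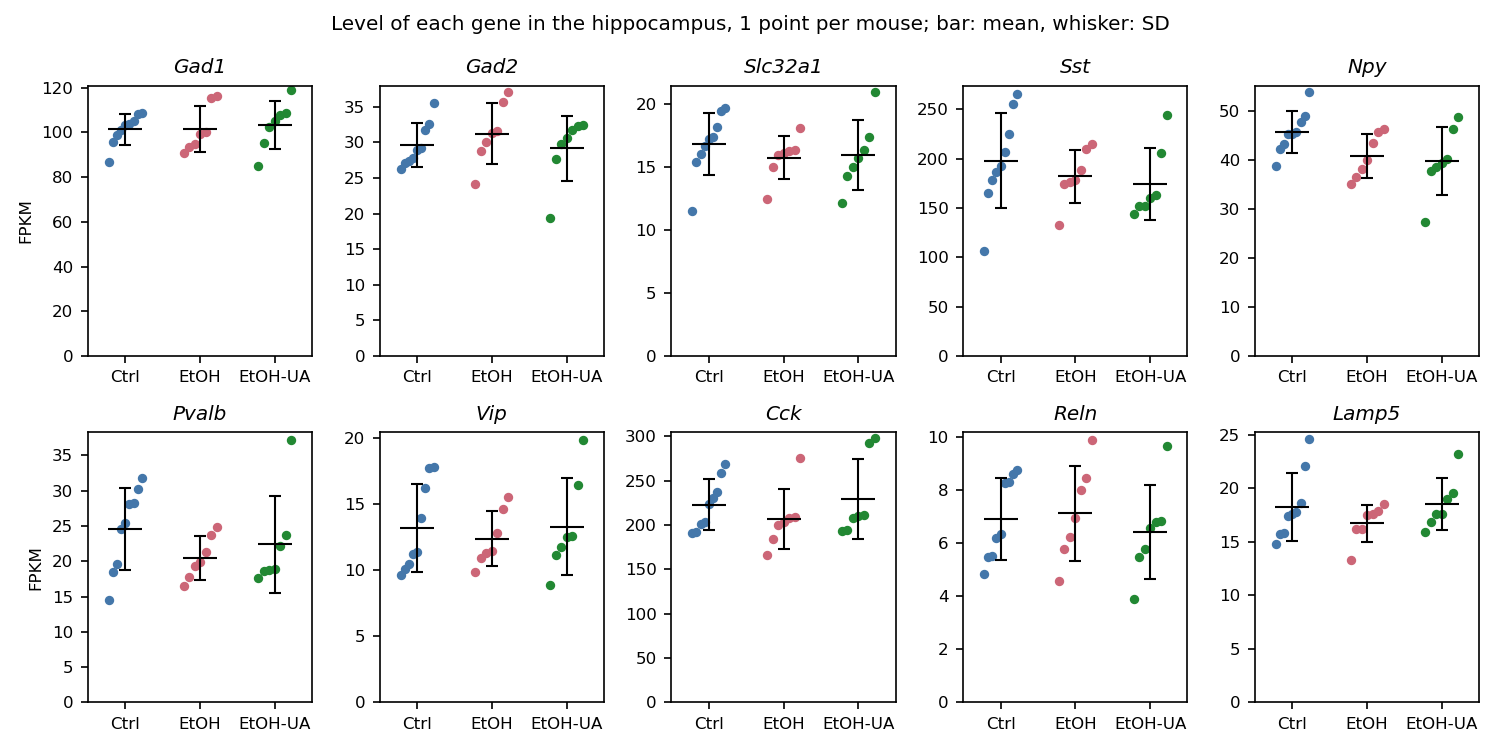
Level of each of the 10 genes in FPKM (vertical axes, from 0) in every Ctrl (blue), EtOH (red) and EtOH-UA (green) mouse, with the mean and SD of each group in black. The groups overlap in every panel, and single mice stand apart, such as the EtOH-UA mouse at 37.1 FPKM for Pvalb and the one at 19.4 FPKM for Gad2.

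No difference between EtOH and Ctrl mice passed the adjusted threshold in these genes. With limma over all genes, 0 of the 10 had an adjusted p under 0.05, where 0.0% of the 15985 genes tested were called, and 0 of the 10 had an unadjusted p under 0.05, against 3.05% of all genes. The fitted value was lower in EtOH mice for 8 of the 10 genes, where 51.4% of all genes were lower, and higher for 2, where 48.6% of all genes were higher. With the choroid plexus score of each library as a covariate, 4 of the 10 were lower and 6 higher. The median log2 fold change of the 10 was -0.09 and that of all genes -0.003. The ranges of the EtOH and Ctrl mice overlapped for all 10. In whole tissue, fewer cells of a class and less RNA per cell cannot be told apart, so each value below is a level of RNA in the hippocampus.

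Among the genes of GABA synthesis and loading, Gad1 ranged from 86.5 to 109 FPKM in Ctrl mice (median 103) and from 90.6 to 116 FPKM in EtOH mice (median 99.5). The EtOH range reached slightly higher, while the means were 101 ± 6.94 FPKM for Ctrl (SD, n = 9) and 101 ± 10.5 FPKM for EtOH (SD, n = 7). The log2 fold change of Gad1 was -0.001, with a 95% interval from -0.139 to 0.137, the narrowest of the 10 intervals. Gad2 ranged from 26.3 to 35.6 FPKM in Ctrl mice (median 28.9) and from 24.1 to 37.0 FPKM in EtOH mice (median 31.3), so that the EtOH mice spanned the Ctrl range. Its log2 fold change was 0.069, with an interval from -0.131 to 0.269. Slc32a1 ranged from 11.5 to 19.7 FPKM in Ctrl mice (median 17.2) and from 12.5 to 18.1 FPKM in EtOH mice (median 16.1). Here 6 of 7 EtOH mice were below the Ctrl median, and the log2 fold change was -0.087, with an interval from -0.301 to 0.126.

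Npy, a peptide that dampens glutamate release, had the smallest p-value of the 10 genes. It ranged from 38.8 to 53.7 FPKM in Ctrl mice (median 45.3) and from 35.1 to 46.2 FPKM in EtOH mice (median 39.9). The groups overlapped, with 5 of 7 EtOH mice below the Ctrl median and the other 2 above it. Ctrl mice averaged 45.6 ± 4.25 FPKM (SD, n = 9), EtOH mice 40.7 ± 4.47 FPKM (SD, n = 7), and the log2 fold change of -0.166 had an interval from -0.353 to 0.022. The unadjusted p from limma was 0.0808 and the adjusted p 0.999. The two-sided exact permutation test over 11440 splits of the mice gave p = 0.0406 before any adjustment, 1 of 30 such tests made on these genes. With the choroid plexus score as a covariate the log2 fold change was -0.086.

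Pvalb had the largest fitted difference between EtOH and Ctrl mice. Its level ranged from 14.6 to 31.8 FPKM in Ctrl mice (median 25.4) and from 16.5 to 24.9 FPKM in EtOH mice (median 19.9). All 7 EtOH mice were below the Ctrl median, but the EtOH range lay inside the Ctrl range. The log2 fold change was -0.235 (SE 0.16), with an interval from -0.557 to 0.087, and the exact permutation p was 0.161. Without Ctrl mouse 144, which had the lowest Pvalb of all mice, it was -0.324, and with the choroid plexus score of each library as a covariate it was -0.07.

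Sst ranged from 107 to 266 FPKM in Ctrl mice (median 193) and from 133 to 215 FPKM in EtOH mice (median 178). The EtOH mice again lay inside the wider Ctrl range. Its log2 fold change of -0.094 had an interval from -0.401 to 0.213, and single libraries moved it over a wide range: it was -0.2 without Ctrl mouse 144 and -0.021 without EtOH mouse 47. With the choroid plexus score of each library in the fit, the sign turned and the value was 0.099. The part that this measure plays in the Sst level was not tested beyond that fit.

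For the remaining genes the intervals also held 0. Cck ranged from 191 to 269 FPKM in Ctrl mice (median 224) and from 166 to 275 FPKM in EtOH mice (median 203), with a log2 fold change of -0.115. Vip ranged from 9.62 to 17.8 FPKM (median 11.4) and from 9.87 to 15.5 FPKM (median 11.4), with a log2 fold change of -0.068. The medians of Vip were alike in both groups, and the Ctrl mice reached higher. Lamp5 ranged from 14.8 to 24.6 FPKM (median 17.6) and from 13.3 to 18.6 FPKM (median 17.5), with a log2 fold change of -0.117. Reln, which is also made by Cajal-Retzius cells, ranged from 4.85 to 8.75 FPKM (median 6.33) and from 4.59 to 9.87 FPKM (median 6.95), with a log2 fold change of 0.034. The widest of these intervals, that of Reln, ran from -0.313 to 0.381, so changes of up to that size could not be told from 0 with these mice.

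Adding urolithin A to the ethanol diet also gave no difference past the adjusted threshold in these genes. Between EtOH-UA and EtOH mice 0 of the 10 had an adjusted p under 0.05 with limma, where 0.0% of all genes tested were called, and 0 of the 10 had an unadjusted p under 0.05, against 3.27% of all genes. The EtOH-UA mice had the higher value for 6 of the 10 genes, where 51.2% of all genes were higher, and the lower value for 4, where 48.8% were lower. The median log2 fold change was 0.018. The ranges overlapped for all 10, and the smallest exact permutation p over 3432 splits was 0.149, for Lamp5.

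Lamp5 ranged from 15.9 to 23.2 FPKM in EtOH-UA mice (median 17.6), with 5 of 7 above the EtOH median. The log2 fold change from EtOH was 0.144, with an interval from -0.064 to 0.351, and it was 0.069 without EtOH-UA mice 137 and 141. Cck ranged from 194 to 298 FPKM in EtOH-UA mice (median 210). Its 2 highest EtOH-UA mice were 137 and 141, at 293 and 298 FPKM, while the other 5 lay close to the EtOH median. The log2 fold change of Cck was 0.147 with all mice, with an interval from -0.087 to 0.38, and -0.0068 without those 2.

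Pvalb in EtOH-UA mice ranged from 17.6 to 37.1 FPKM (median 18.8), and 1 mouse carried the upper end: mouse 141 had 37.1 FPKM and the next highest 23.7 FPKM. The log2 fold change of Pvalb from EtOH was 0.096 with all mice and -0.032 without mouse 141. Vip ranged from 8.83 to 19.8 FPKM (median 12.5), with its highest value also in mouse 141, and its log2 fold change of 0.077 became -0.027 without that mouse. Reln ranged from 3.88 to 9.67 FPKM (median 6.56), with 6 of 7 EtOH-UA mice below the EtOH median. Its log2 fold change was -0.152 with all mice and -0.045 without mice 137 and 141.

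The genes of GABA synthesis and loading, Gad1 from 84.8 to 119 FPKM (median 105), Gad2 from 19.4 to 32.4 FPKM (median 30.7) and Slc32a1 from 12.1 to 20.9 FPKM (median 15.7), overlapped the EtOH mice over most of their ranges. Their log2 fold changes from EtOH were 0.025, -0.105 and 0.01. For Gad2 the value was -0.011 without mouse 137, which had 19.4 FPKM where the next lowest EtOH-UA mouse had 27.7 FPKM. Sst ranged from 144 to 244 FPKM (median 161), with a log2 fold change of -0.069, which was -0.12 without mice 137 and 141. Npy ranged from 27.3 to 48.8 FPKM (median 39.3), with a log2 fold change of -0.049, which was 0.037 without EtOH-UA mouse 102, the lowest, and -0.113 without mice 137 and 141.

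The comparison of EtOH-UA with Ctrl mice shares its mice with the other comparisons. It called 0 of the 10 genes at an adjusted p under 0.05 with limma, where 0.0% of all genes were called, and 1 of the 10, Npy, at an unadjusted p under 0.05, against 3.08% of all genes. The fitted value was lower in EtOH-UA mice for 6 genes and higher for 4, where 48.8% of all genes were lower and 51.2% higher. Without mice 137 and 141 it was lower for 8 and higher for 2. With the slope on transcript length as a covariate it was lower for 7 and higher for 3, and with the choroid plexus score 5 and 5. The EtOH-UA mice averaged 39.7 ± 6.9 FPKM of Npy (SD, n = 7), and 5 of the 7 were below the Ctrl median of 45.3 FPKM. The log2 fold change was -0.214 (SE 0.091), with an interval from -0.402 to -0.027, an unadjusted p of 0.0267 and an adjusted p of 0.999 from limma. The exact permutation p was 0.0403 before adjustment. Without EtOH-UA mouse 102 the log2 fold change was -0.128, and without mouse 141 it was -0.267. The Npy values of the 3 comparisons, -0.166, -0.049 and -0.214, stand side by side, and none passed the adjusted threshold. With mice 137 and 141 both left out, Npy in EtOH-UA against Ctrl was at -0.279. With the choroid plexus score as a covariate it was at -0.158. Sst had a fitted difference of -0.163, with an interval from -0.469 to 0.144, and Pvalb of -0.139, with an interval from -0.461 to 0.183. Both depended on the libraries and the fit: without mice 137 and 141 they were -0.214 and -0.249, and with the choroid plexus score as a covariate -0.026 and -0.022.

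**Figure D2:**
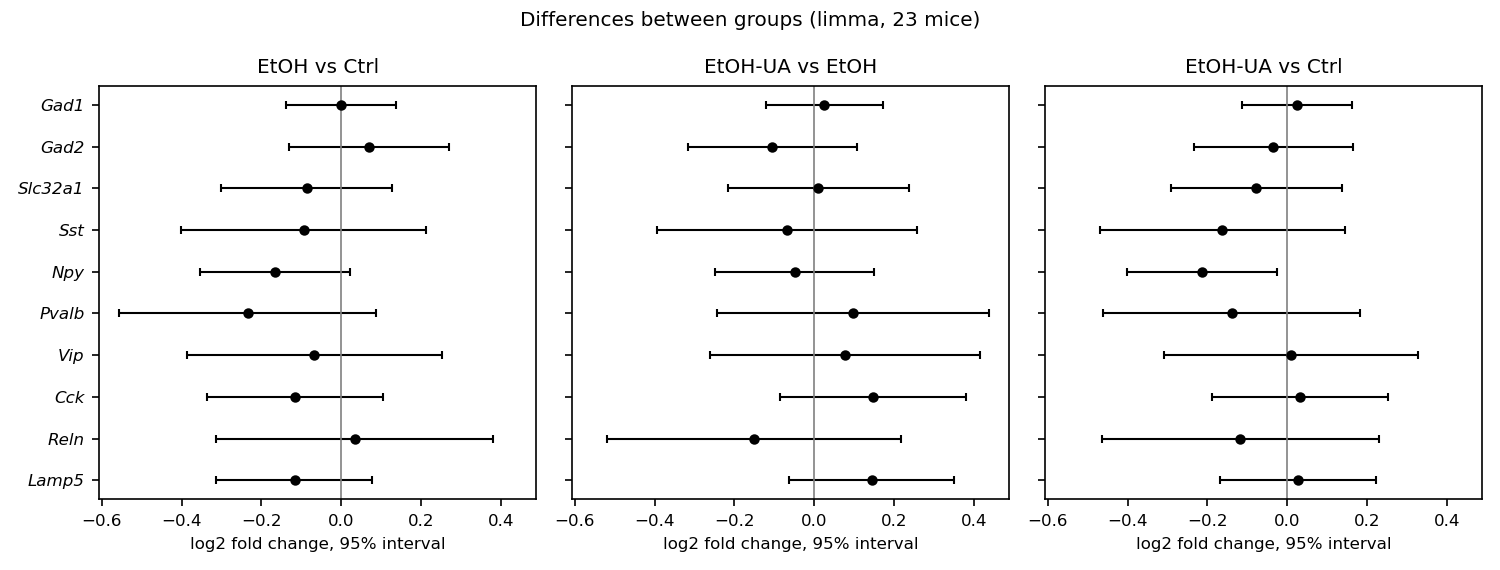
Log2 fold changes of the 10 genes with 95% intervals (horizontal axis) from the limma model of all 23 mice, for EtOH against Ctrl, EtOH-UA against EtOH and EtOH-UA against Ctrl. The intervals hold 0 for all genes and comparisons but Npy in EtOH-UA against Ctrl, from -0.402 to -0.027, whose adjusted p was 0.999.

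The wider pathway gave the same count as the 10 genes: no gene of 6 further lists passed an adjusted p under 0.05 with limma in any comparison. The numbers with an unadjusted p under 0.05 were 0 to 1 per list and comparison, where 3.05% to 3.27% of all genes had one. The directions below stand beside 48.6% of all genes higher in EtOH than Ctrl mice and 51.2% higher in EtOH-UA than EtOH mice. A list of 16 genes held mostly transcription factors that specify interneurons. Of these 16 genes, 10 were higher and 6 lower in EtOH than Ctrl mice, and 4 were higher and 12 lower in EtOH-UA than EtOH mice. The 1 with an unadjusted p under 0.05 was Dlx6, a homeobox gene of the ganglionic eminences, whose mean was 2.76 ± 0.612 FPKM under EtOH (SD, n = 7) and 2.12 ± 0.486 FPKM under EtOH-UA (SD, n = 7). Its log2 fold change was -0.363, and the adjusted p from limma was 0.9. The most abundant were Satb1 (19.0 FPKM in Ctrl mice), Nr2f2 (10.2 FPKM) and Dlx1 (9.8 FPKM), whose log2 fold changes between EtOH and Ctrl were 0.006, 0.123 and 0.017.

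Of 24 other genes of interneuron classes, 11 were higher and 13 lower in EtOH than Ctrl mice, with a median log2 fold change of -0.018. Among the abundant ones Id2, a marker of neurogliaform and Vip cells, had a mean of 58.8 FPKM in Ctrl mice, 54.6 FPKM in EtOH mice and 62.1 FPKM in EtOH-UA mice. Kcnc1, a potassium channel of fast-spiking cells, had 31.3, 30.9 and 29.2 FPKM, and Calb2 (calretinin) 23.5, 24.9 and 27.5 FPKM in the same order. Of 10 genes of the perineuronal net, the matrix that surrounds Pvalb cells, 6 were higher and 4 lower in EtOH than Ctrl mice. Hapln4, a link protein of that matrix, had an unadjusted p of 0.0446 and an adjusted p of 0.999 with limma. Its mean was 27.8 ± 1.97 FPKM for Ctrl (SD, n = 9) and 25.5 ± 3.32 FPKM for EtOH (SD, n = 7).

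Of 12 genes of GABA transport and turnover, 9 were higher in EtOH than Ctrl mice, with a median log2 fold change of 0.05, and 9 were lower in EtOH-UA than EtOH mice, with a median of -0.038. Slc6a11, a GABA transporter of astrocytes, averaged 35.0 ± 3.44 FPKM for Ctrl (SD, n = 9), 35.1 ± 2.22 FPKM for EtOH (SD, n = 7) and 31.3 ± 3.78 FPKM for EtOH-UA (SD, n = 7). From EtOH to EtOH-UA the difference on the log2 scale was -0.172, with an unadjusted p of 0.0282 and an adjusted p of 0.9 from limma. Of 17 genes, most of them receptors of the peptides and of reelin, 3 were below 0.1 FPKM and 14 were tested. Of the 14, 6 were higher and 8 lower in EtOH than Ctrl mice. Npy2r, a presynaptic receptor of neuropeptide Y, had 19.6, 19.2 and 18.2 FPKM in the 3 groups. Of 15 genes that process and store peptides, 12 were lower in EtOH than Ctrl mice, with a median log2 fold change of -0.03, which compares with -0.003 for all genes. Cpe, the carboxypeptidase that trims peptide precursors, had 1240 FPKM in Ctrl mice and 1220 FPKM in EtOH mice.

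Beyond the groups, several of the genes moved together from mouse to mouse. Levels were correlated over the 23 mice after the group means were taken out, with 100000 permutations within groups and adjustment over the 45 pairs. At an adjusted p under 0.05, 12 of the 45 pairs were called, all of them positive. Without mice 137 and 141, 4 of the 12 were called and no other pair. The closest pair was Slc32a1 and Sst, with r = 0.838 and rho = 0.747 (permutation p = 2e-05, adjusted p = 0.0009). It was 0.744 without the 2 mice farthest from the median of Slc32a1 and 0.824 without mice 137 and 141 (permutation, adjusted p = 0.0265). Within the Ctrl, EtOH and EtOH-UA groups it was 0.849, 0.81 and 0.876, with exact permutation p of 0.0114, 0.0474 and 0.00417. Mice with more Sst thus had more Slc32a1 in each group. Sst marks a part of the interneurons, and Slc32a1 is used by all of them.

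The GABA genes formed the next closest pairs. Gad1 and Slc32a1 had r = 0.74 and rho = 0.554 (permutation p = 0.00014, adjusted p = 0.00315), and r was 0.556 without the 2 mice farthest from the median. Among EtOH mice alone it was 0.486 (exact permutation p = 0.296). Gad1 and Gad2 had r = 0.732 and rho = 0.659 (permutation p = 0.00031, adjusted p = 0.00349), but 0.617 with an adjusted p of 0.0685 without mice 137 and 141. In Ctrl mice alone this r was 0.268 (exact permutation p = 0.491), against 0.834 for EtOH mice and 0.886 for EtOH-UA mice, and whether the groups differ in r was not tested. Gad2 and Reln had r = 0.732 and rho = 0.655 (permutation p = 0.00024, adjusted p = 0.00349), with 0.54 without the 2 mice farthest from the median. Here too r was low among Ctrl mice, at 0.311 (exact permutation p = 0.413), against 0.965 for EtOH and 0.84 for EtOH-UA mice, and whether the groups differ was not tested.

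Sst was in 5 called pairs: beside Slc32a1 these were Vip (r = 0.63), Pvalb (r = 0.627), Cck (r = 0.57) and Gad1 (r = 0.52), with permutation adjusted p of 0.0172, 0.025, 0.025 and 0.0355. Pvalb and Vip were each called with Gad1 and Slc32a1 too, at r from 0.556 to 0.614. Of these pairs, Sst with Cck kept an adjusted p under 0.05 without mice 137 and 141, at r = 0.667 (permutation, adjusted p = 0.0454). Npy and Lamp5 were in no called pair. The largest r of Npy was with Sst, at 0.46, and the largest of Lamp5 was with Cck, at 0.39. With ranks in place of values (Spearman), 8 pairs were called, 7 of them among the 12. Pvalb with Gad1, Slc32a1 and Sst was not called with ranks, at rho of 0.415, 0.346 and 0.418 (permutation adjusted p of 0.134, 0.239 and 0.137). Neither was Sst with Cck (rho = 0.527, permutation adjusted p = 0.0702) or with Gad1 (rho = 0.434, permutation adjusted p = 0.128). The pairs of Slc32a1 with Sst and of Gad2 with Reln were called in all 6 other settings tried, each over all groups together.

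**Figure D3:**
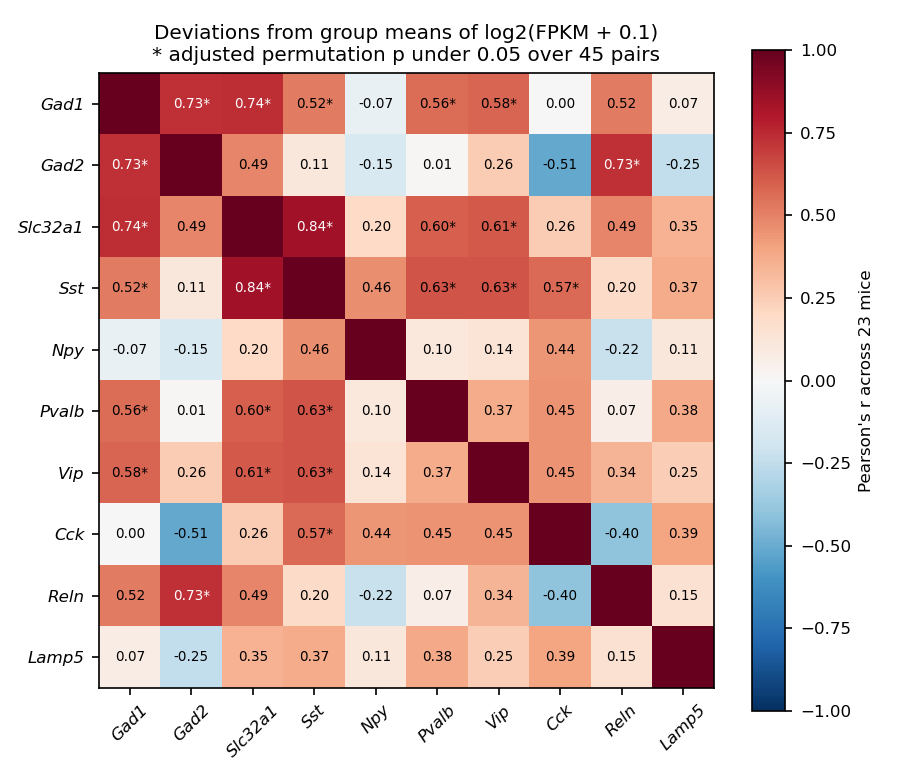
Pearson's r between each pair of the 10 genes (rows and columns) over 23 mice, on deviations from the group means of log2(FPKM + 0.1). Red is positive and blue negative, and a star marks the 12 pairs with an adjusted permutation p under 0.05, which centre on Slc32a1, Sst and Gad1.

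The 10 genes were then compared with the slope on transcript length and with scores of 10 marker lists of other cells and regions, 110 relations in all, a comparison added after the values had been seen. Of these, 13 had an adjusted p under 0.05 with Pearson's r and 10 with both r and rho. The closest was Cck with the length slope, at r = -0.925 and rho = -0.893 (permutation p = 1e-05, the smallest that 100000 permutations can give, adjusted p = 0.0011). It was -0.92 without the 2 mice farthest from the median slope, and -0.952, -0.899 and -0.956 within Ctrl, EtOH and EtOH-UA mice. The libraries with the most negative slopes, those of EtOH-UA mice 137 and 141, had the most Cck of all. Its transcript of 799 bases is one of the 4 shortest of the 10, and the slope was fitted over 12565 genes without regard to function. The short transcripts of Npy (566 bases), Sst (721 bases) and Pvalb (977 bases) had r of -0.4, -0.407 and -0.355 with the slope, which did not pass the adjusted threshold. The r of transcripts of middle length were -0.329 for Vip (1530 bases), -0.417 for Lamp5 (1955 bases), -0.071 for Slc32a1 (2797 bases) and 0.218 for Gad1 (3355 bases). These did not pass it either, and r thus did not follow length strictly. The long transcripts of Gad2 (5744 bases) and Reln (11699 bases) had positive r, 0.694 and 0.514. For Gad2 the permutation adjusted p was 0.0373 for r and 0.114 for rho (0.504), and r was 0.677 without the 2 mice farthest from the median. Within Ctrl, EtOH and EtOH-UA mice r of Gad2 was 0.493, 0.863 and 0.7, with exact permutation p of 0.177, 0.0129 and 0.1. With the slope removed from every gene, 21 of 45 pairs were called, the 12 among them.

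Sst was lower in mice with more choroid plexus RNA, at r = -0.697 and rho = -0.7 (permutation p = 0.00034, adjusted p = 0.0125) and -0.598 without the 2 mice farthest from the median score. Within Ctrl mice r was -0.757 (exact permutation p = 0.00663). Among the EtOH mice it was -0.754 and among the EtOH-UA mice -0.605, which did not pass 0.05 (exact permutation p = 0.0762 and 0.159). The scores fell into a lower set of 9 mice (5 Ctrl, 1 EtOH and 3 EtOH-UA) and a higher set of 14 (4 Ctrl, 6 EtOH and 4 EtOH-UA), and r for Sst was -0.808 within the lower set and -0.58 within the higher. The median of Sst was 215 FPKM in the lower set and 175 FPKM in the higher. Gad1 (r = -0.604, rho = -0.578, permutation adjusted p = 0.0339 for r) and Slc32a1 (r = -0.588, rho = -0.441, permutation adjusted p = 0.0486 for r) were also lower where this score was high, and within the lower and the higher set r was -0.607 and -0.768 for Gad1 and -0.778 and -0.767 for Slc32a1. For rho the permutation adjusted p was 0.0456 for Gad1 and 0.173 for Slc32a1, so Slc32a1 was not called with ranks. All 12 choroid plexus genes were higher in EtOH than Ctrl mice, with a median log2 fold change of 1.71, and 0 of them passed the adjusted p. With limma 3 of the 12 had an unadjusted p under 0.05, where 3.05% of all genes had one. With the score removed from every gene, 7 pairs were called, 4 of them among the 12, and 1 of the others, Gad2 with Cck, was negative (r = -0.691). The part of the choroid plexus RNA in the levels of Sst, Gad1 and Slc32a1 was not tested.

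Vip was lower in mice in which the 10 genes of hippocampal subfields were high, at r = -0.805 and rho = -0.745 (permutation p = 5e-05, adjusted p = 0.00275) and -0.729 without the 2 mice farthest from the median score. Among Ctrl mice r was -0.955 (exact permutation p = 0.000254). Among the EtOH mice it was -0.475 and among the EtOH-UA mice -0.715, which did not pass 0.05 (exact permutation p = 0.288 and 0.0786). Sst (r = -0.606, rho = -0.614) and Cck (r = -0.637, rho = -0.686) had the same sign, with permutation adjusted p of 0.0491 and 0.0181. Npy had its only called relation with the microglia list, at r = 0.59 and rho = 0.653 (permutation adjusted p = 0.0486), and Pvalb with the Cajal-Retzius list, at r = -0.664 and rho = -0.639 (permutation adjusted p = 0.0191). That list summed to between 8.46 and 14.1 FPKM over the mice, with 2 of its 8 genes below 0.1 FPKM. The microglia score was also called with Gad2 (r = -0.632) and Cck (r = 0.596), and the striatum score with Reln (r = 0.579). For Cck with the microglia score rho was 0.525, with a permutation adjusted p of 0.114. The part of the microglial, Cajal-Retzius, subfield and striatal markers in these levels was not tested.

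**Figure D4:**
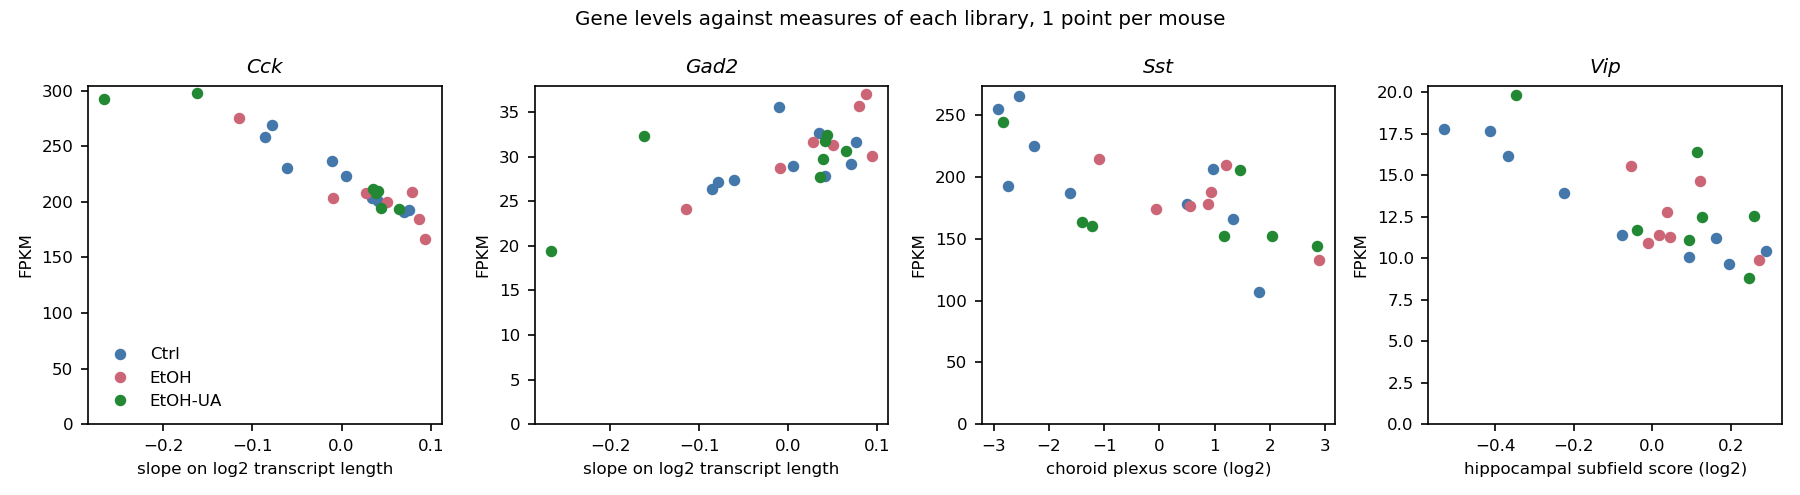
FPKM (vertical axes, from 0) of Cck and Gad2 against the slope of each library on log2 transcript length, of Sst against the choroid plexus score and of Vip against the hippocampal subfield score, 1 point per mouse, with Ctrl in blue, EtOH in red and EtOH-UA in green. Cck falls along the slope in all 3 groups (r = -0.925 on deviations from group means), Gad2 increases with it (r = 0.694), and Sst and Vip are lower at higher scores (r = -0.697 and -0.805).

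Ranking the 12904 genes that averaged 1 FPKM or more by their likeness to each gene over the 23 mice gave the following closest genes. These r are descriptions, ranked over many genes, with no test. Closest to Npy were Cort (r = 0.779), the cortistatin gene, Nkd1 (r = 0.739) and Sox2 (r = 0.733), a factor of neural progenitors and glia. Closest to Vip were Tac1 (r = 0.871), the substance P precursor, Nrsn2 (r = 0.853) and Tpbg (r = 0.85). Closest to Pvalb were Cerk (r = 0.893), Nefh (r = 0.874), the heavy neurofilament of large axons, and Pradc1 (r = 0.856). The mean of Gad1, Gad2 and Slc32a1 was closest to Ptprn2 (r = 0.896), a protein of dense-core vesicles, Tmem132d (r = 0.856) and Ntm (r = 0.855). For Cck the 3 closest were Psmb3 (r = 0.971), Mrpl20 (r = 0.969) and Ndufs8 (r = 0.965), of the proteasome, the mitochondrial ribosome and complex I, with short transcripts of 766, 764 and 1005 bases. For Reln they were Pcdh10 (r = 0.919), Nrg1 (r = 0.896) and Cmtm4 (r = 0.889), with long transcripts of 8234, 5415 and 7734 bases. Sst was closest to Tmem91 (r = 0.88), St8sia5 (r = 0.867) and Cnih3 (r = 0.85), and Lamp5 to Zfp64 (r = 0.837), Lig1 (r = 0.826) and Kcns1 (r = 0.808). For other genes the lengths were mixed. In the order named, the genes closest to Pvalb (977 bases) had 4518, 3994 and 1038 bases. Those closest to Sst (721 bases) had 877, 5432 and 2668, and those closest to Npy (566 bases) had 677, 4081 and 2057. Those closest to Vip (1530 bases) had 1230, 1455 and 3603, and those closest to Lamp5 (1955 bases) 2848, 3174 and 2712.

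Single mice stood at the low or high end for many of the 10 genes at once. EtOH-UA mouse 141 had the highest value of its group for 7 of the 10 genes, and mouse 137 the lowest for 5. Ctrl mouse 144 was the lowest Ctrl mouse for 6 genes and EtOH mouse 47 the lowest EtOH mouse for 6. Mice 144 and 47 also had the highest choroid plexus scores of their groups, 1.81 and 2.89, and mouse 141 the lowest of the EtOH-UA mice, -2.83.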

How the data were processed

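Hippocampal RNA from 23 mice was sequenced as 100 bp paired-end reads. The authors deposited FPKM per gene, to 2 decimals. The submitters' processing notes name HISAT2 2.1.0, Bowtie2 2.2.5, RSEM 1.2.8, StringTie and DESeq, while the methods name other versions of Bowtie2 and RSEM, the mm10 build and poly(A)+ RNA, where the labels say total RNA. FPKM are relative, so a transcript that takes a large share lowers the others. Columns were assigned to groups by name. They carry mouse numbers that the sample labels do not hold. Animals were separate, as far as the design states, and p-values measure the spread between these mice. The methods state that mice shared cages. Cages are not labelled, so the tests treat cage mates as independent.

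The members and gene lists were chosen with earlier results of these data known. Values were transformed as log2(FPKM + 0.1), and genes averaging 0.1 FPKM or more were fitted with limma 3.58.1 (R 4.3.3) in 1 model of 3 groups with an intensity trend, with Benjamini-Hochberg adjustment over all genes tested and a threshold of 0.05. Fold changes are on that scale. The count test of the methods was not applied to FPKM. Each of the 10 genes was also compared by two-sided exact permutation. Correlations used deviations from group means. The scores are means of centred log2 values over a list. Lamp5 was left out of the neocortex score. Tac1 and Penk stayed in the striatum score, Calb2 in the thalamus score and Ndnf in the Cajal-Retzius score. These genes are also in the list of other genes of interneuron classes, so those scores are not free of interneuron genes. From each list the 3 most abundant genes and those with the smallest unadjusted p under 0.05 were to be named, with a selection given here, and for each gene the 3 most alike. The pipeline was tested on simulated data. Read depth was estimated from steps between low FPKM values in 49 of 583 genes with 1 transcript, at a median of 17.2 fragments per kilobase at 1 FPKM. Transcript lengths are those of GENCODE on GRCm38. Alternatives were other pseudocounts, filters, scalings and fits, each mouse left out, and, added after the data were seen, the length slope, the choroid plexus score and the removal of 2 libraries.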

Additional observations from a re-analysis of the deposited data

Results flagged for a closer look

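In 4 of 30 sets of values (10 genes in 3 groups), 1 mouse stood farther from the others than Dixon's 95% critical value allows, where chance gives about 1 in 20, or 1.5 sets. Gaps and ranges were taken on log2(FPKM + 0.1), so the shares below are of the range on that log2 scale. In EtOH-UA mice the lowest Gad2 value, 19.4 FPKM in mouse 137, was separated from the next, 27.7 FPKM, by 0.693 of the group's log2 range. In the same group the highest Pvalb value, 37.1 FPKM in mouse 141, was separated from the next, 23.7 FPKM, by 0.605 of the log2 range. These are the 2 libraries with the highest summed FPKM. In Ctrl mice the lowest Slc32a1 value, 11.5 FPKM in mouse 144, was separated from the next, 15.4 FPKM, by 0.548 of the log2 range. In EtOH mice the lowest Lamp5 value, 13.3 FPKM in mouse 47, was separated from the next, 16.2 FPKM, by 0.585 of the log2 range.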

How the results depend on the processing

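No paired analysis was possible because the columns carry mouse numbers and no replicate numbers. The design names no pairs of mice either. The groups held separate mice, as far as the design states, and replicate numbers would not by themselves pair them. Of 1020 fold changes of the 10 genes under the alternatives, 0 passed an adjusted p under 0.05 with limma, and the smallest adjusted p was 0.574. The sign of the difference held under every alternative for 13 of the 30 gene comparisons. Most differences that turned were close to 0. For EtOH against Ctrl the value of Gad1 became 0.013 with upper-quartile scaling, 0.047 with quantile normalization and 0.07 with the choroid plexus score as a covariate. With that score Slc32a1 became 0.025, Sst 0.099 and Vip 0.066, and with the length slope Reln became -0.03. For EtOH-UA against EtOH, Gad1 became -0.032 with quantile normalization, and Slc32a1 became -0.01 with upper-quartile scaling, -0.0078 with quantile normalization, -0.00049 with the length slope and -0.023 with the choroid plexus score. Without EtOH-UA mice 137 and 141, Pvalb became -0.013, Vip -0.02 and Cck -0.0068. For EtOH-UA against Ctrl, the length slope gave 0.0082 for Gad2, -0.025 for Vip and -0.033 for Cck, the choroid plexus score 0.0019 for Slc32a1, quantile normalization -0.00028 for Cck, and leaving out mice 137 and 141 gave 0.044 for Gad2, -0.088 for Vip, -0.122 for Cck and -0.049 for Lamp5. The cause was not tested.

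With each mouse left out in turn, EtOH against Ctrl ran from -0.035 to 0.025 for Gad1 and from -0.05 to 0.132 for Reln, and, with the sign held, from 0.026 to 0.129 for Gad2, -0.154 to -0.033 for Slc32a1, -0.2 to -0.021 for Sst, -0.125 to -0.0086 for Vip, -0.187 to -0.066 for Cck and -0.153 to -0.062 for Lamp5. EtOH-UA against EtOH ran from -0.0098 to 0.072 for Gad1, -0.058 to 0.073 for Slc32a1, -0.101 to 0.037 for Npy, -0.032 to 0.146 for Pvalb and -0.027 to 0.167 for Vip. EtOH-UA against Ctrl ran from -0.011 to 0.071 for Gad1, -0.064 to 0.059 for Gad2, -0.094 to 0.099 for Vip, -0.035 to 0.069 for Cck and -0.029 to 0.082 for Lamp5. The number of genes called over the whole table ran from 0 to 1 in each comparison. The 1 gene was LOC115488002 without Ctrl mouse 203 (EtOH against Ctrl), and LOC101055676 without EtOH-UA mouse 178 or 179 in the other comparisons. Called pairs among the 10 genes numbered 12 with all mice, 4 with quantile normalization (3 of the 12), 21 with the length slope removed, 7 with the choroid plexus score removed and 4 without mice 137 and 141. At the estimated depth, counting error was below the spread between mice for each of the 10 genes.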

Other observations

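Some marker lists of other cells and regions leaned one way between groups, each with 0 genes past an adjusted p under 0.05 with limma. All 8 genes of oligodendrocytes were higher in EtOH than Ctrl mice, with a median log2 fold change of 0.111 and 0 genes with an unadjusted p under 0.05, and 7 of 8 were lower in EtOH-UA than EtOH mice. Mbp, the myelin basic protein, had 917 ± 256 FPKM (SD, n = 9) in Ctrl mice and 980 ± 160 FPKM (SD, n = 7) in EtOH mice. All 9 tested genes of the thalamus list were higher in EtOH than Ctrl mice, with a median of 0.128. The 6 tested genes of the Cajal-Retzius list were also all higher, with a median of 0.289. Genes of hippocampal subfields were higher in EtOH-UA than Ctrl mice in 9 of 10 cases, with a median of 0.23, and Wfs1, a marker of CA1 pyramidal cells, had an unadjusted limma p of 0.0161 and an adjusted p of 0.999.

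The striatum list had 3 genes with an unadjusted p under 0.05 between EtOH and Ctrl mice, out of 11 tested, where 3.05% of all genes had one: Adora2a (log2 fold change -0.399), Gpr6 (0.452) and Rarb (0.165), which did not share a direction and were at or under 2.09 FPKM on average in each group. The astrocyte list (6 of 8 higher in EtOH than Ctrl mice, median 0.037), the microglia list (3 of 8 higher, median -0.039), the neocortex list (3 of 10 higher, median -0.076) and the list of pyramidal and granule neurons (3 of 10 higher, median -0.064) had 0 genes with an unadjusted p under 0.05 in that comparison.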
